A study of Homo sapiens with 6 samples.

Results

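The 10 genes described here store, take up, export and sense cellular iron: the ferritin chains FTH1 and FTL, the uptake genes TFRC, TF, SLC11A2 and STEAP3, the exporter SLC40A1, the hormone gene HAMP, and the iron regulatory protein genes ACO1 and IREB2. They were chosen by gene symbol, each matched 1 row of a table of 78304 genes, and all 10 were among the 14275 genes that were tested because they averaged 1 TPM or more over all libraries (TPM, transcript abundance per length, scaled to a fixed sum). The libraries were made from poly(A)-selected RNA of Huh7, a human hepatocellular carcinoma cell line whose genotype is labelled wild type. Cells were seeded for 24 h and then kept for 24 h with 16'-DEC (3 libraries) or with the vehicle DMSO (3 libraries). The labels give no dose for 16'-DEC and do not say whether the libraries came from separate cultures, and p-values therefore describe a spread between libraries that may be technical.

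Iron circulates bound to transferrin, which hepatocytes make, and enters cells through the transferrin receptor. Inside the cell it is reduced, passed to the cytosol and either used or stored in ferritin, a shell built of heavy chains, which oxidise iron, and light chains, which help its core to form. Iron regulatory proteins bind hairpins called iron-responsive elements when iron is scarce: binding in a 5′ UTR holds back translation of ferritin and of the exporter ferroportin, and binding in the 3′ UTR of the transferrin receptor protects that mRNA from decay. RNA sequencing reads the amount of mRNA and not its translation.

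The hairpins that some of these transcripts carry are shown as a description of their sequence. In the deposited TPM the ferritin mRNAs that carry them were higher and that of the transferrin receptor was lower. After GC and length adjustment that of the receptor was not called. Whether the hairpins bear on these mRNA levels was not tested. The search was for the letters CNNNNNCAGTG on the transcript strand, followed by any base and by bases that can pair with all 5 positions between the bulged C and the loop (G-T pairs allowed). Windows of 27 bases from GENCODE 29 on GRCh38 are written 5′ to 3′ with the conserved loop letters in capitals. The FTH1 element lies in the 5′ UTR at chr11:61967575-61967601 (minus strand), that of FTL in the 5′ UTR at chr19:48965336-48965362 (plus strand), that of SLC40A1 in the 5′ UTR at chr2:189580662-189580688 (minus strand), and those of TFRC in the 3′ UTR at chr3:196050980-196051006, chr3:196050576-196050602, chr3:196050511-196050537 and chr3:196050464-196050490 (minus strand), named a to d along the mRNA.
FTH1: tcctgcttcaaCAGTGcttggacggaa
FTL: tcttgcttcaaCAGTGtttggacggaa
SLC40A1: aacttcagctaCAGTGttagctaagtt
TFRC a: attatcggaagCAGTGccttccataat
TFRC b: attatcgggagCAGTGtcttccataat
TFRC c: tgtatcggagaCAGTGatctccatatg
TFRC d: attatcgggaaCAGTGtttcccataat
The FTH1 and FTL windows shared 25 of 27 bases, whereas FTH1 and SLC40A1 shared 13, and pairs of TFRC windows shared 17 to 25. Of 19922 protein-coding genes, 0.186% held the motif in the 5′ UTR of some coding transcript and 0.823% in the 3′ UTR. The SLC40A1 element was present in 1 of 5 annotated coding transcripts, those of TFRC in 3 of 5, and that of FTH1 in 9 of 10. The motif also matched 1 site in TF, in the 3′ part of an annotated transcript of 20602 bases. A match is a description of letters, and a gene without one in this search was not tested for binding.

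The libraries correlated across tested genes at 0.982 to 0.994 within groups and at 0.898 to 0.922 between them (Pearson's r of log2(TPM + 1); genes are not independent replicates). All 9 hepatocyte or hepatoma markers examined were present, with summed levels of 21894 to 23062 TPM in 16'-DEC and 18688 to 19299 TPM in DMSO. They did not move together: APOA2 averaged 12700.4 TPM in 16'-DEC and 7692 TPM in DMSO, whereas AFP averaged 965 TPM in 16'-DEC and 2721 TPM in DMSO, APOB 196 and 627 TPM, and ALB 4369 and 4931 TPM. Of 8 markers of other cell types, only ACTA2 had a group mean of at least 1 TPM, HBB was listed at 0 throughout, and their sums were 12.2 to 12.8 TPM in 16'-DEC and 14.8 to 18.8 TPM in DMSO. TPM keep no sequencing depth and are relative to the whole library, and in bulk RNA fewer cells and less RNA per cell cannot be told apart. The median tested gene was at -0.31 (16'-DEC minus DMSO, log2(TPM + 1)), and median-of-ratios scaling moved that median by 0.29. Changes also moved with the GC content of the transcripts: the median was -1.11 for 4743 genes under 45% GC and 0.24 for 4022 genes of at least 55%. Each gene below is therefore also given after adjusting each library for transcript GC content and length, which re-centred the libraries as well.

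Ferritin transcripts were about 2 times as abundant with 16'-DEC, and in the deposited TPM those of the transferrin receptor, DMT1, ferroportin, hepcidin and IRP2 were lower. After GC and length adjustment hepcidin was still called lower, ferroportin was called higher at 0.21, and the others were not called. With the shortest transcripts in that adjustment DMT1 was called lower at -0.73. Of the 10 genes, 3 rose (FTH1, FTL and ACO1), 5 fell (TFRC, SLC11A2, SLC40A1, HAMP and IREB2) and 2 (TF and STEAP3) did not pass an adjusted p of 0.05 (limma on log2(TPM + 1), Benjamini-Hochberg over all tested genes). Among all tested genes 22.7% were called higher, 48.9% lower and 71.5% in either direction, so 8 called of 10 is close to the background. The libraries of the groups did not overlap for 8 of the 10 genes, against 75.3% of all tested genes. The median of the 10 was -0.44. Median-of-ratios scaling called 4 of them higher and 5 lower, beside backgrounds of 37.1% and 37.7%. The GC and length adjustment called 5 higher and 2 lower, beside 34.5% and 31.7%. FTH1, FTL and ACO1 were higher and HAMP was lower, with an adjusted p under the threshold, in all 20 alternative analyses of each. Several of these analyses leave the difference itself unchanged by design and can move only its p or its call.

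**Figure D1:**
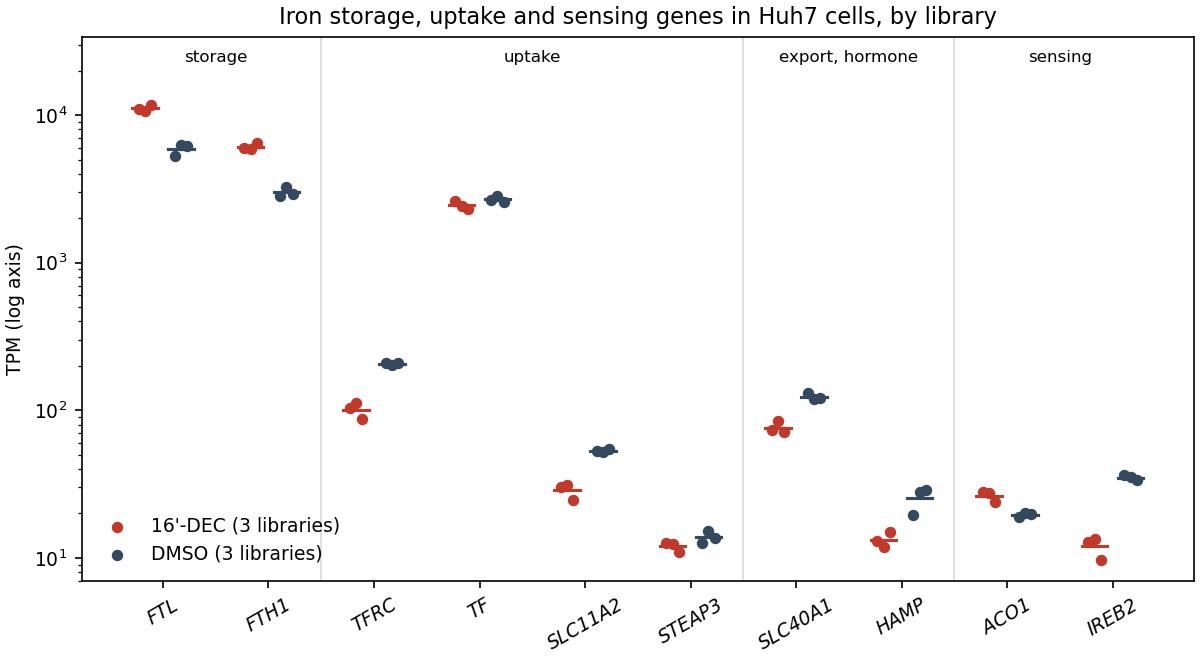
Levels of the 10 iron genes in TPM (log axis) in each of 3 16'-DEC libraries (red, left of each pair) and 3 DMSO libraries (dark, right), with horizontal lines at the group means. FTL averaged 11122 TPM in 16'-DEC and 5934 TPM in DMSO and IREB2 11.9 and 35.0 TPM, without overlap, while the points of TF and STEAP3 overlap.

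The light chain of ferritin, FTL (ENSG00000087086, chromosome 19, 48965301 to 48966878), had the highest TPM of the 10 genes in both groups. It had 10975, 10708 and 11683 TPM in the 16'-DEC libraries, against 5328, 6272 and 6201 TPM in DMSO. Every treated library lay above every DMSO library, and FTL had a median rank of 5 among all genes in 16'-DEC and of 15 in DMSO. The change was 0.91 ± 0.0795 (log2(TPM + 1), ± SE, adjusted p = 9.93e-06, limma) and 0.71 after GC and length adjustment.

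FTH1, the ferroxidase chain (ENSG00000167996, chromosome 11, 61959718 to 61967660), had 5954, 5885 and 6440 TPM in 16'-DEC, against 2822, 3242 and 2915 TPM in DMSO. The groups were far apart relative to their spread, with means of 6093 ± 303 and 2993 ± 221 TPM (SD, n = 3 each), a 2.04-fold ratio. The change was 1.03 ± 0.0741 (adjusted p = 3.03e-06, limma), and 1.08 after the GC and length adjustment. FTH1 and FTL together took 1.72% ± 0.0804 of all TPM in 16'-DEC and 0.893% ± 0.0702 in DMSO (exact permutation p = 0.1, 2-sided, the smallest that 3 against 3 libraries allow). Ferritin has many processed pseudogenes that could share its reads. The 27 FTH1 pseudogene rows summed to 5.89 TPM in 16'-DEC and 7.58 TPM in DMSO, and the 18 FTL rows to 4.17 and 1.86 TPM. The largest such sum in any library was 0.311% of its parent gene, and adding the rows to the parents left the changes at 1.02 and 0.91. The most abundant were FTH1P16, with 2.65 TPM in 16'-DEC and 3.49 TPM in DMSO, and FTLP14, with 3.81 and 1.74 TPM.

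TFRC, the receptor that carries transferrin-bound iron into the cell (ENSG00000072274, chromosome 3, 196027183 to 196082189), had 103, 112 and 87.3 TPM in 16'-DEC, against 210, 204 and 208 TPM in DMSO. The DMSO libraries were within a few TPM of each other and all treated libraries lay far below them, at 0.486 times the DMSO mean. TFRC fell by 1.04 on the log2 scale (SE 0.0941, adjusted p = 1.22e-05, limma), or by 0.69 with median-of-ratios scaling. Its transcript has 41.5% GC, and after GC and length adjustment it was at 0.05 and did not pass (adjusted p = 0.360; over all alternatives from 1.09e-06 to 0.413).

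SLC11A2 encodes DMT1, which moves reduced iron out of endosomes (ENSG00000110911, chromosome 12, 50979401 to 51028566). It had 30.1, 31.3 and 24.7 TPM in 16'-DEC and 53.0, 51.9 and 54.7 TPM in DMSO, again without overlap. SLC11A2 fell by 0.87 (SE 0.0985, adjusted p = 4.95e-05, limma). After GC and length adjustment it was at -0.05 with the longest annotated principal transcript and did not pass, but it was at -0.73 and passed with the shortest (adjusted p over all alternatives from 8.02e-06 to 0.564).

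TF, the transferrin that liver cells secrete (ENSG00000091513, chromosome 3, 133745956 to 133796640), had 2617, 2421 and 2296 TPM in 16'-DEC and 2682, 2834 and 2567 TPM in DMSO. The groups overlapped and the difference of -0.14 ± 0.0724 did not pass (adjusted p = 0.109, limma). Its sign depended on the scaling: TF was called at 0.21 with median-of-ratios scaling and at 0.90 after GC and length adjustment. With quantile normalization it was called at -0.47 (adjusted p over all alternatives from 9.05e-05 to 0.302, limma). The adjustment used an annotated TF transcript of 20602 bases, the same by the longest and the shortest choice. Whether that transcript matches the measured mRNA was not tested. The annotated TF gene shares exons on the same strand with SRPRB, which averaged 114 TPM in 16'-DEC and 52.7 TPM in DMSO, and reads in the shared part cannot be assigned to either gene.

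STEAP3, the endosomal reductase that prepares iron for DMT1 (ENSG00000115107, chromosome 2, 119223831 to 119265652), had 12.7, 12.4 and 11.0 TPM in 16'-DEC and 12.5, 15.1 and 13.7 TPM in DMSO. These ranges overlapped, and the difference of -0.18 ± 0.0999 did not pass (adjusted p = 0.135, limma). STEAP3 was called lower at -0.27 after GC and length adjustment and higher at 0.29 with quantile normalization (adjusted p over all alternatives from 3.35e-04 to 0.370). Thus the receptor and the endosomal transporter of the transferrin cycle were called lower in the deposited TPM, and its ligand and its reductase were not called.

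SLC40A1 encodes ferroportin, the only known iron exporter of mammalian cells (ENSG00000138449, chromosome 2, 189560579 to 189583758). It had 73.0, 85.2 and 70.7 TPM in 16'-DEC, against 131, 120 and 121 TPM in DMSO. The groups did not overlap, and SLC40A1 fell by 0.70 (SE 0.0879, adjusted p = 1.01e-04, limma), or by 0.35 with median-of-ratios scaling, but it was called higher at 0.21 after GC and length adjustment (42.4% GC). SLC40A1 carries a 5′ UTR element, as the ferritin genes do, in 1 of 5 annotated coding transcripts. Its level in the deposited TPM was lower and theirs were higher, and whether the element bears on mRNA level was not tested.

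HAMP, the gene of hepcidin, the liver hormone that makes cells degrade ferroportin (ENSG00000105697, chromosome 19, 35280716 to 35285143), had 13.0, 11.8 and 15.0 TPM in 16'-DEC, against 19.7, 28.0 and 28.8 TPM in DMSO. All treated libraries were below all DMSO libraries, and DMSO replicate 1 lay below the other two of its group. HAMP fell by 0.88 (SE 0.151, adjusted p = 6.94e-04, limma). With 56.6% GC it was the only gene of the 5 to be called lower after GC and length adjustment with both the longest and the shortest principal transcript, at -1.08 in each. Median-of-ratios scaling put it at -0.55 and quantile normalization at -0.44.

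**Figure D2:**
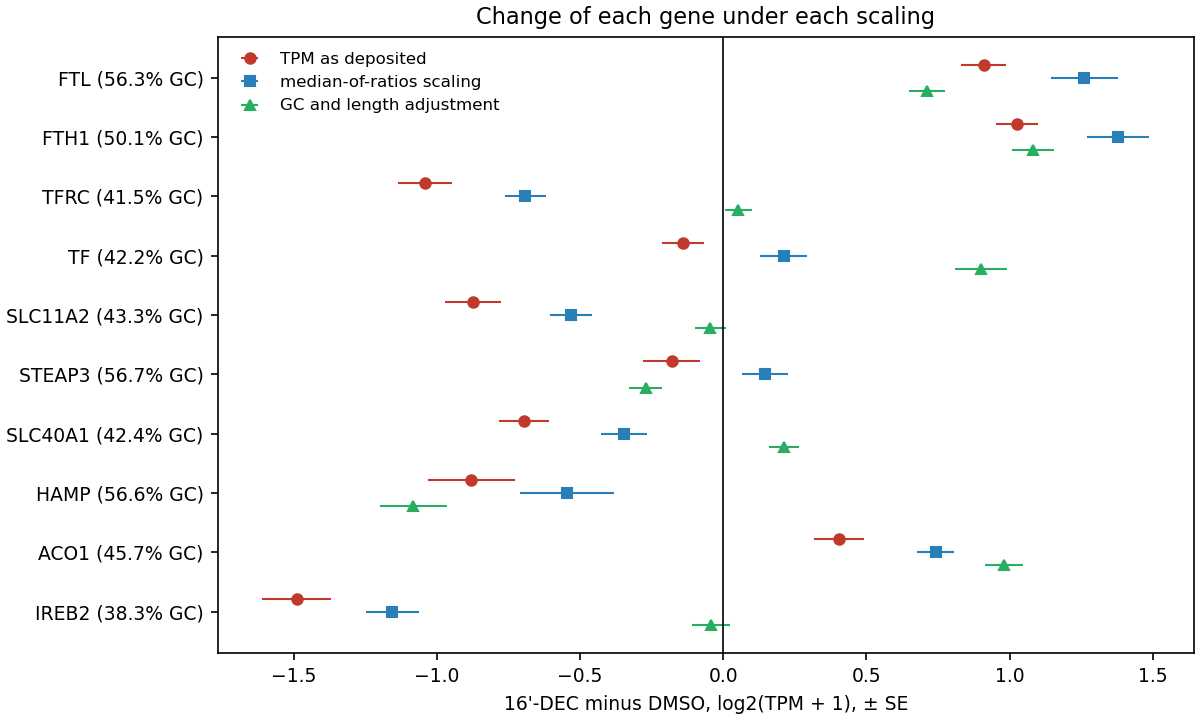
Difference of each gene, 16'-DEC minus DMSO, on the log2(TPM + 1) scale with its SE, from TPM as deposited (circles), with median-of-ratios scaling (squares) and after GC and length adjustment (triangles); the GC content of the transcript stands beside each name. FTL, FTH1 and ACO1 lie above 0 and HAMP below 0 in all 3, while TFRC, TF, STEAP3 and SLC40A1 lie on different sides of 0.

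The genes of iron sensing went in opposite directions. IREB2 encodes IRP2, an iron regulatory protein that is degraded when iron is plentiful (ENSG00000136381, chromosome 15, 78437431 to 78501456). It had 12.8, 13.4 and 9.61 TPM in 16'-DEC, against 36.3, 35.1 and 33.7 TPM in DMSO. All treated libraries were far below DMSO, and the fall of 1.49 (SE 0.121, adjusted p = 6.08e-06, limma) was the largest of the 10 genes. Its transcript has the lowest GC content of the 10, 38.3%, and after GC and length adjustment IREB2 was at -0.04 and did not pass (adjusted p = 0.60; over all alternatives from 4.02e-07 to 0.789).

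ACO1 encodes IRP1, which with an iron-sulfur cluster is cytosolic aconitase and without one binds the elements (ENSG00000122729, chromosome 9, 32384603 to 32454769). It had 27.9, 27.4 and 23.9 TPM in 16'-DEC and 19.0, 20.3 and 19.7 TPM in DMSO. The groups did not overlap, and ACO1 rose by 0.41 (SE 0.0870, adjusted p = 0.00256, limma), by 0.74 with median-of-ratios scaling and by 0.98 after GC and length adjustment (45.7% GC). Of the 6 genes under 50% GC, 4 were called lower, ACO1 was called higher and TF was not called. Among all tested genes under 45% GC, 4051 of 4743 were called lower and 168 higher. From 45% to under 50% GC, where ACO1 lies, 1209 of 2379 were called lower and 379 higher.

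Ratios within a library do not depend on how libraries are scaled to each other. TFRC mRNA was 0.00610, 0.00674 and 0.00482 times the summed ferritin mRNA in 16'-DEC, against 0.0257, 0.0215 and 0.0228 times in DMSO. The log2 ratio was lower by 2.00, with no overlap (exact permutation p = 0.1, 2-sided, the smallest possible), and lower by 0.79 after GC and length adjustment. IREB2 was 0.461, 0.487 and 0.401 times ACO1 in 16'-DEC, against 1.91, 1.73 and 1.71 times in DMSO. Thus ACO1 had the higher TPM of the pair in every treated library and IREB2 in every DMSO library. The log2 ratio was -1.16 ± 0.145 in 16'-DEC and 0.83 ± 0.0884 in DMSO (SD, n = 3 each, exact permutation p = 0.1), with a difference of -1.02 after the GC and length adjustment. Which of the pair is higher depends on the gene lengths used, which were not given. For ACO1 the longest principal transcript has 7466 bases and the shortest 3601. The difference between groups does not depend on them if each gene had the same length in all libraries.

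The make-up of ferritin mRNA moved little beside these. FTL was 1.84, 1.82 and 1.81 times FTH1 in 16'-DEC, against 1.89, 1.93 and 2.13 times in DMSO. Every treated library was just under every DMSO library, with a log2 difference of -0.12 (exact permutation p = 0.1, 2-sided). Without DMSO replicate 3, the highest library, the difference was -0.07. After the GC and length adjustment it was -0.37.

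**Figure D3:**
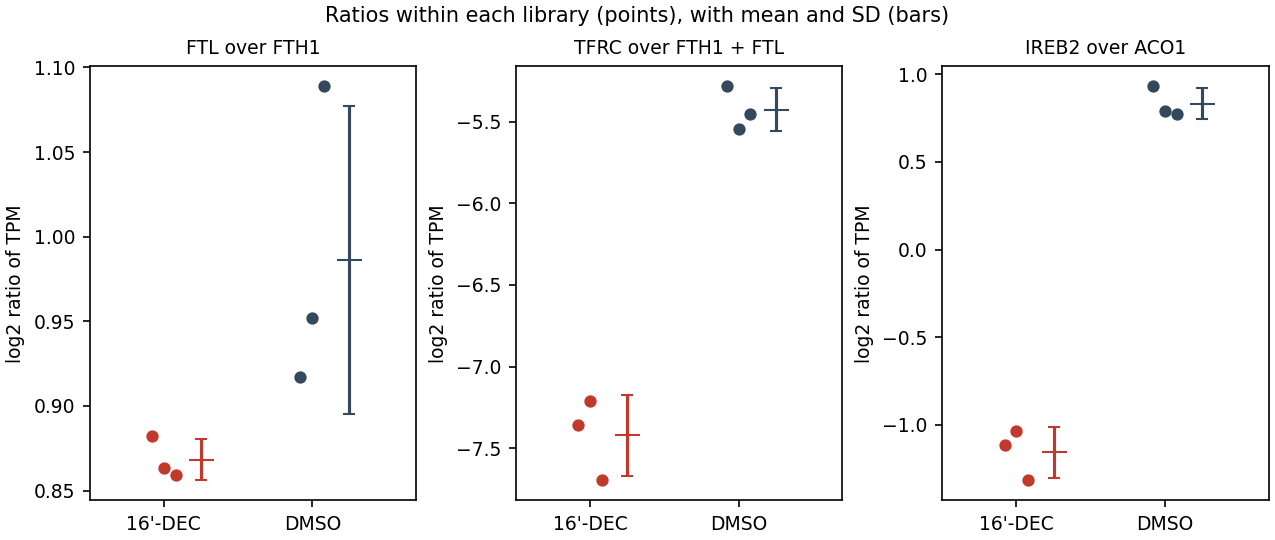
Log2 ratios of TPM within each library for FTL over FTH1, TFRC over the sum of FTH1 and FTL, and IREB2 over ACO1, with 16'-DEC (red) left of DMSO (dark), and mean and SD as bars. The vertical axes differ: the groups are 0.12 apart for FTL over FTH1 and about 2.00 apart in the other panels.

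The order of the levels was alike in both groups at the top. In 16'-DEC it ran FTL, FTH1, TF, TFRC, SLC40A1, SLC11A2, ACO1, HAMP, STEAP3 and IREB2, where the libraries of SLC11A2 and ACO1, of HAMP and STEAP3, and of STEAP3 and IREB2 overlapped. In DMSO it ran FTL, FTH1, TF, TFRC, SLC40A1, SLC11A2, IREB2, HAMP, ACO1 and STEAP3, where FTH1 and TF overlapped, as did HAMP and ACO1. In the deposited TPM FTH1 was thus above TF in 16'-DEC (6093 and 2445 TPM), whereas the pair was not separated in DMSO (2993 and 2694 TPM). The order between genes depends on the gene lengths used for TPM, which were not given. This matters for TF, whose annotated transcript has 20602 bases.

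Beyond these 10, 115 other genes of iron handling in 7 lists were examined, of which 98 were tested. In all 44 fell, 30 rose and 24 were not called. Their median was -0.16, beside -0.31 for all tested genes, of which 48.9% were called lower and 22.7% higher. After GC and length adjustment (here also called GC-adjusted) 43 were higher and 28 lower, beside 34.5% higher and 31.7% lower of all genes. With median-of-ratios scaling 46 were higher and 32 lower, beside 37.1% higher and 37.7% lower of all tested genes. The same shares, for each scaling, are the backgrounds of the list counts below.

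Of 18 other genes of iron uptake 12 were tested, of which 8 fell, 1 rose and 3 were not called in the deposited TPM (median -0.54), beside the 48.9% of all tested genes called lower. With median-of-ratios scaling 1 was higher and 5 were lower, and after GC and length adjustment 6 were higher and 5 lower. EXOC6, an exocyst subunit that serves transferrin recycling, fell to 6.39 ± 0.831 TPM in 16'-DEC, against 26.8 ± 1.59 TPM in DMSO (-1.91, or -0.45 GC-adjusted). SLC39A8 (ZIP8), a metal importer, fell to 0.815 ± 0.0640 TPM, against 4.87 ± 0.60 TPM in DMSO (-1.69, GC-adjusted -0.95). SLC39A14 (ZIP14), the main importer of iron not bound to transferrin in hepatocytes, was at 175 ± 24.2 TPM in 16'-DEC and 296 ± 3.4 TPM in DMSO (-0.76 and adjusted p = 1.37e-04, limma; GC-adjusted -0.40). TFR2, a liver iron sensor related to TFRC, fell by 0.53 and by 0.76 after the GC and length adjustment, but did not pass with median-of-ratios scaling (-0.26) or with quantile normalization. LCN2, which binds iron-carrying siderophores, rose to 1.80 ± 0.131 TPM in 16'-DEC, against 0.965 ± 0.0344 TPM in DMSO.

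Among genes of iron export and hepcidin control, of 16 tested (of 22) 4 rose, 9 fell and 3 did not pass (median -0.65). With median-of-ratios scaling 5 were higher and 8 lower, and after the GC and length adjustment 6 were higher and 7 lower. CP, or ceruloplasmin, the plasma ferroxidase that works with ferroportin, fell to 9.99 ± 2.15 TPM in 16'-DEC, against 52.8 ± 7.19 TPM in DMSO (-2.30, adjusted p = 2.03e-06, limma; GC-adjusted -0.96). BMPR1A, a receptor of the BMP signal that induces hepcidin, fell by 1.37; GC-adjusted it was at -0.14, with an adjusted p of 0.0482 (limma) that did not pass with the shortest transcript (0.0803) or with the replicate block added (0.0921). GDF15, a secreted stress factor, rose to 575 ± 12.3 TPM, against 335 ± 44.9 TPM in DMSO (0.79, GC-adjusted 0.47). The cofactors HJV and TMPRSS6 were below the 1 TPM filter.

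Genes that handle cytosolic iron or turn over ferritin and IRP2 went both ways, with 3 higher, 4 lower and 4 not passing of 11 tested (of 13; median 0.06), with 7 higher and 1 lower with median-of-ratios scaling, and with 5 higher and 2 lower after GC adjustment. NCOA4, the receptor that delivers ferritin to lysosomes by autophagy, fell to 260 ± 31.6 TPM in 16'-DEC, against 369 ± 18.0 TPM in DMSO (-0.51, adjusted p = 0.00107, limma), and was at -0.16 without passing with median-of-ratios scaling. FBXL5, the iron-sensing subunit of the ligase that marks IRP2 for degradation, was lower at -0.37, did not pass at -0.04 with median-of-ratios scaling, and was called higher at 0.78 after GC adjustment. CUL1, the scaffold of such ligases, fell by 1.06 (GC-adjusted -0.45). PCBP1, an iron chaperone that loads ferritin, was at 482 ± 8.72 TPM in 16'-DEC and 438 ± 44.3 TPM in DMSO and did not pass (0.14), but passed at 0.49 with median-of-ratios scaling and at 0.22 without DMSO replicate 2. BOLA2, a partner in iron-sulfur delivery with a near-identical copy that makes its level uncertain, was at 88.6 ± 12.5 TPM in 16'-DEC and 47.1 ± 18.7 TPM in DMSO (0.98, GC-adjusted 0.68). DMSO replicate 1 was at 25.6 TPM and the other two of its group at 58.6 and 57.2 TPM, and without it the difference was 0.60.

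Heme genes included increases of the breakdown enzymes. Of 22 tested (of 24), 9 rose, 7 fell and 6 did not pass (median 0.14); 14 were higher and 6 lower with median-of-ratios scaling, and 11 higher and 5 lower after GC adjustment. HMOX1, the inducible heme oxygenase that frees iron from heme, rose to 68.8 ± 4.07 TPM in 16'-DEC, against 30.8 ± 3.49 TPM in DMSO (1.14, adjusted p = 8.79e-06, limma; GC-adjusted 0.85). BLVRB, a biliverdin reductase, rose to 58.3 ± 1.37 TPM, against 25.4 ± 8.99 TPM in DMSO (1.22, GC-adjusted 0.92). CLPX, a mitochondrial unfoldase that acts on the first enzyme of heme synthesis, fell by 1.22 (GC-adjusted -0.12, not passing).

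Of 22 tested genes (of 23) of mitochondrial iron and iron-sulfur cluster assembly, 6 rose, 10 fell and 6 did not pass (median -0.14); 11 were higher and 8 lower with median-of-ratios scaling, and 10 higher and 4 lower after GC adjustment. ABCB10, a mitochondrial transporter needed for heme synthesis, fell to 6.76 ± 0.336 TPM in 16'-DEC, against 36.5 ± 1.03 TPM in DMSO (-2.27, adjusted p = 1.26e-07, limma; GC-adjusted -1.71). The ferredoxins differed: FDX1 fell by 1.12 (GC-adjusted -0.17, not passing) and FDX2 rose by 0.73 (GC-adjusted 0.43). Of 10 cytosolic iron-sulfur assembly genes 6 rose, 2 fell and 2 did not pass (median 0.33), with 7 higher and 2 lower with median-of-ratios scaling, and 4 higher and 3 lower after GC adjustment. The targeting factor CIAO2B rose by 0.86 and the scaffold NUBP2 by 0.70 (GC-adjusted 0.44), while YAE1, an adaptor of this pathway, fell by 1.48 (GC-adjusted -0.51).

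The last list held 5 other transcripts for which an iron-responsive element has been described, and 1 rose and 4 fell (median -0.29); 1 was higher and 2 were lower with median-of-ratios scaling, and likewise after GC adjustment. CDC42BPA, a kinase, fell by 1.60 (GC-adjusted -0.78), and CDC14A, a phosphatase, fell by 1.27 (GC-adjusted -1.19). Among the 10 genes, transcripts with a 5′ UTR element were found on both sides in the deposited TPM, with FTH1 and FTL higher and SLC40A1 lower. After GC and length adjustment FTH1, FTL and SLC40A1 were all called higher (1.08, 0.71 and 0.21).

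**Figure D4:**
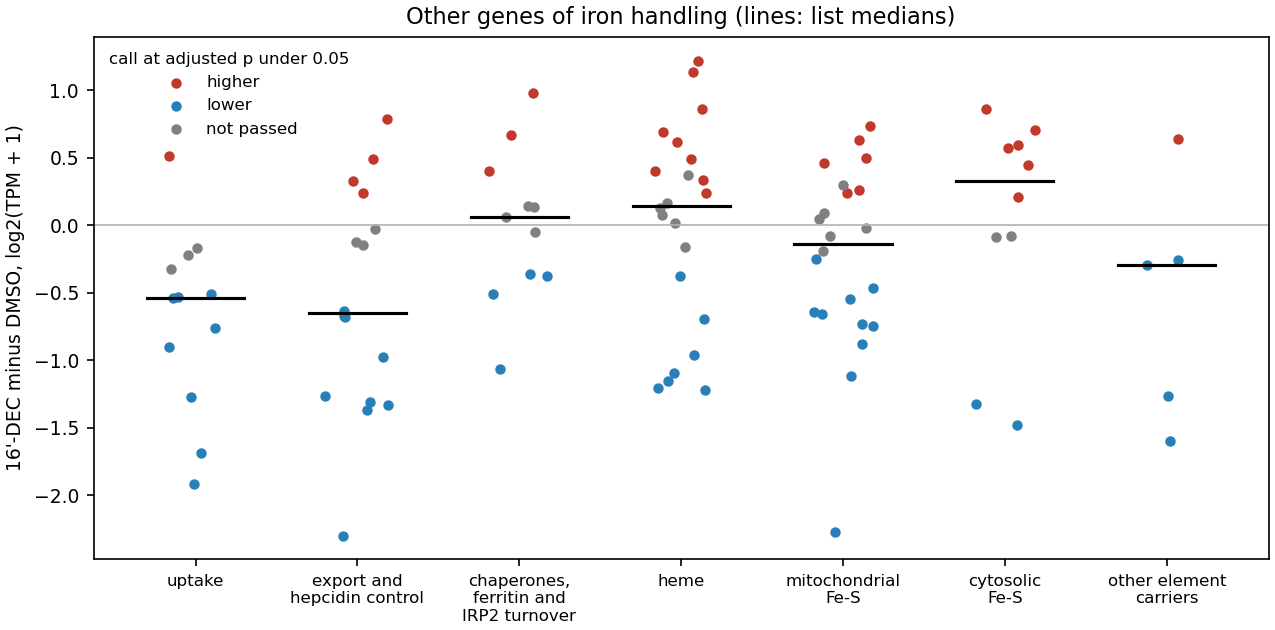
Each point is a tested gene of another iron handling list, with its difference 16'-DEC minus DMSO on the log2(TPM + 1) scale, coloured by its call, and black lines at list medians. Medians ran from -0.65 for export and hepcidin control to 0.33 for cytosolic iron-sulfur assembly; after GC adjustment they lay between -0.15 and 0.26, and those of uptake, of export and hepcidin control and of mitochondrial iron-sulfur assembly were above 0.

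Genes with the most similar pattern were sought among 9814 others that had a symbol and averaged 5 TPM or more, by the root mean square difference of log2(TPM + 1) centred on each gene over the 6 libraries. For FTH1 they were COX14 (0.0245), IL32 (0.0362) and PPIB (0.0364). For FTL they were MRPS18A (0.0236), CLPP (0.0286) and SSNA1 (0.0300). For TFRC they were STX16 (0.0272), NAPB (0.0300) and EDA2R (0.0300). COX14, for example, averaged 133 TPM in 16'-DEC and 64.9 TPM in DMSO, and STX16 33.4 and 70.6 TPM.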

How the data were processed

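TPM were computed and deposited by the authors in a single table, where each library sums to 1000000 within rounding; 35914 rows have no symbol. Tools named in the submitters' processing notes are HISAT2 2.0.1, HTSeq 0.6.1, cutadapt 1.9.1 and DESeq2 (no version), and the build is GRCh38, with no roles stated. Annotation, gene lengths and strand use were not given in the sources used here, so reads of overlapping genes cannot be told apart. TPM keep no depth, and no interval from counts is given. Identical values made up at most 0.0692% of genes at 1 TPM or more in any pair of libraries.

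Genes averaging 1 TPM or more were tested on log2(TPM + 1), a scale that understates changes of low genes, with limma 3.58.1 in R 4.3.3 (eBayes with a mean trend, 2-sided, Benjamini-Hochberg, threshold 0.05), after a check on simulated data. Ratios were compared with exact permutation tests (scipy 1.17.1). GC content and length came from GENCODE 29 (best APPRIS level, then basic, then longest transcript; 93.11% of tested genes), and were removed per library by natural splines of 5 degrees of freedom. All positions are GRCh38 from GENCODE 29. Named other genes were, per list, the 2 called genes of largest change in the majority direction and 1 in the other, plus HMOX1, NCOA4, FBXL5, PCBP1, TFR2 and SLC39A14; the HJV and TMPRSS6 levels were added after their values were seen. Of the genes this rule names, 1 is not reported here. The genes and lists were chosen with earlier results of these data known. Other settings were pseudocounts of 0.1 and 5, no filter or 5 TPM, other scalings, no mean trend, a threshold of 0.01, a replicate block and leaving out each library. Figures were drawn with matplotlib 3.10.9.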

Additional observations from a re-analysis of the deposited data

How the results depend on the processing

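Of 200 alternative values of the 10 genes, 179 kept their direction and their side of the threshold. Those of FTH1 (0.89 to 1.38), FTL (0.71 to 1.26), ACO1 (0.35 to 0.98) and HAMP (-1.08 to -0.44) all did. The GC and length adjustment called 5 of the 10 genes higher and 2 lower, and the same with the replicate block added. With the shortest transcript, chosen after seeing the data, it called 5 higher and 3 lower. Over all genes these adjustments called 4213, 3982 and 4196 lower, and among other iron genes 28, 27 and 29 lower. Median-of-ratios scaling called 5290 genes higher, 46 of them among the other iron genes, and quantile normalization 5990. Under the GC and length adjustment alone or with the block TFRC turned to 0.0518, TF to 0.90, SLC40A1 to 0.21 and FBXL5 to 0.78. With the shortest transcript TF turned to 0.92, SLC40A1 to 0.26 and FBXL5 to 0.81. For FTL, TF, SLC40A1 and IREB2 the longest and the shortest principal transcript are the same. Their values in that setting moved only through the transcripts of other genes, so it is no separate check of them. Median-of-ratios scaling put TF at 0.21; STEAP3 turned to 0.29 and FBXL5 to 0.0493 with quantile normalization. STEAP3 at 0.15 with median-of-ratios scaling and PCBP1 at -0.05 after GC adjustment turned too, uncalled before and after. The cause was not tested.

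Same-numbered libraries of the groups deviated from their group means with correlations of 0.0941, -0.182 and -0.0726 across genes. These values show no pairing by number. With 3 libraries per group they cannot decide whether same-numbered libraries share a culture or batch, and the labels do not say. The replicate block called 3 of the 10 genes higher and 5 lower, and 3014 genes higher and 6823 lower in all; the ratios' exact sign-flip p was then 0.25, the smallest possible. Leaving out each library gave 3 higher and 5 lower of the 10 genes every time. Over these fits the log2 ratio difference of TFRC to ferritin ran from -2.10 to -1.86, that of IREB2 to ACO1 from -2.05 to -1.91 and that of FTL to FTH1 from -0.15 to -0.07. With 1 library left out the smallest exact p is 0.2. BOLA2 did not pass with no filter on low values.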

Other observations

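The searched motif was also counted over all genes. Of 37 genes with it in a 5′ UTR, 25 were tested, of which 10 were higher and 11 lower in 16'-DEC (median 0.01), beside backgrounds of 22.7% and 48.9% of all tested genes. Of 164 genes with it in a 3′ UTR, 121 were tested, with 29 higher and 61 lower (median -0.32). These counts include genes described above: FTH1, FTL and SLC40A1 for the 5′ UTR, and TFRC and TF for the 3′ UTR. After GC and length adjustment the counts were 13 higher and 6 lower for the 5′ UTR, and 44 higher and 33 lower for the 3′ UTR. Over all genes that adjustment called 34.5% higher and 31.7% lower. ALAS2, the erythroid first enzyme of heme synthesis, carries the element but was below the filter on low values.

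Low levels in the iron lists included HPX (hemopexin, which carries free heme) at 0.479 TPM in 16'-DEC and 0.559 TPM in DMSO. HP (haptoglobin, which binds free hemoglobin) was at 8.47 TPM in 16'-DEC and 20.9 TPM in DMSO and fell by 1.21 (adjusted p = 2.11e-06, limma; GC-adjusted -1.15). Both were chosen after their values were seen.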
